A study of Mus musculus with 6 samples.

Results

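The genes described here are the amino acid transporters of 7 solute carrier families, Slc1, Slc3, Slc6, Slc7, Slc36, Slc38 and Slc43, in subcutaneous mouse tumours. They were chosen by symbol, as every gene whose name starts with one of these family prefixes followed by a digit, which gave 62 of the 21671 named genes in the count table. The families held 7 Slc1, 2 Slc3, 19 Slc6, 16 Slc7, 4 Slc36, 11 Slc38 and 3 Slc43 genes. One of the Slc7 symbols, Slc7a6os, belongs to a neighbouring gene that encodes no transporter, and several Slc6 and Slc43 genes carry neurotransmitters, creatine or nucleobases and not amino acids.

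RNA was read in 3 libraries from tumours taken 4 h after doxycycline, labelled ST18 knockdown, and in 3 libraries from untreated tumours, labelled wild type. The tumours of both groups came from transformed hepatoblasts, the bipotent progenitors of the liver, injected into CD1 nude ho mice. The injected cells carried the conditional vector TtRMPVIR shST18, whose hairpin RNA against St18, a zinc finger transcription factor gene, is expressed once doxycycline is present. Doxycycline was given by oral gavage at 200 mg/ml in 300 µl. The groups differ in the drug, the gavage and the hairpin at once, and these cannot be told apart. Neither separate animals per library nor the animals' age are stated in the labels, so the p-values measure the spread between these libraries, which may be technical.

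Most amino acid transporters of these families work at the plasma membrane or at the lysosome. Many Slc7 proteins are light chains that reach the cell surface only when bound to a heavy chain of the Slc3 family. Exchangers such as Slc7a5 and Slc1a5 trade one amino acid for another, while the Slc38 system A carriers bring in neutral amino acids together with sodium. A subset of the genes is known to be induced by ATF4, the transcription factor of the amino acid and stress response, and amino acids that enter the cell are sensed by mTORC1 at the lysosome. In tumours, Slc7a5, Slc7a11 and Slc1a5 are known for supplying leucine, cystine and glutamine.

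The libraries held 12090309 to 15899374 counts after doxycycline and 13148155 to 16169043 counts without it. St18 itself had 34, 12 and 61 counts in doxycycline replicates 1, 2 and 3, against 12, 23 and 19 counts in untreated replicates 1, 2 and 3 (log2 fold change 1.03, edgeR adjusted p = 0.298), so the libraries labelled ST18 knockdown did not show less of the targeted RNA. Of 12 hepatoblast and biliary markers, Krt8 averaged 61.0 ± 27.6 CPM after doxycycline and 43.5 ± 24.7 CPM untreated (SD, n = 3 each; CPM is the count scaled to a common library size), while the hepatocyte gene Alb had 0 to 2 counts per library and the fetal liver gene Afp 6 to 20. The first principal component (44.9% of the variance) set the groups apart. On the second (27.6%) doxycycline replicate 2 lay at 52.7 and doxycycline replicates 1 and 3 at -24.1 and -26. The untreated libraries lay between them, at -4.55 to 2.53.

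Of the 62 genes, 43 had enough counts to be tested, and 8 of these were lower and 2 higher after doxycycline. The lower genes were Slc1a4, Slc1a5, Slc1a7, Slc3a2, Slc6a9, Slc7a1, Slc7a5 and Slc7a11, and the higher genes were Slc7a2 and Slc43a3. The test was edgeR's quasi-likelihood test with Benjamini-Hochberg adjustment over all 14809 genes tested. Among all genes it called 2.18% lower and 2.84% higher, against 18.6% and 4.65% of the tested transporter genes. The median log2 fold change was 0.08 over the 43 genes and 0.01 over all genes tested, and 20 of the 43 values were negative. The libraries of the groups did not overlap for 12 members that were lower and 6 that were higher after doxycycline, where 14.5% and 15.1% of all genes were apart in these directions.

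**Figure D1:**
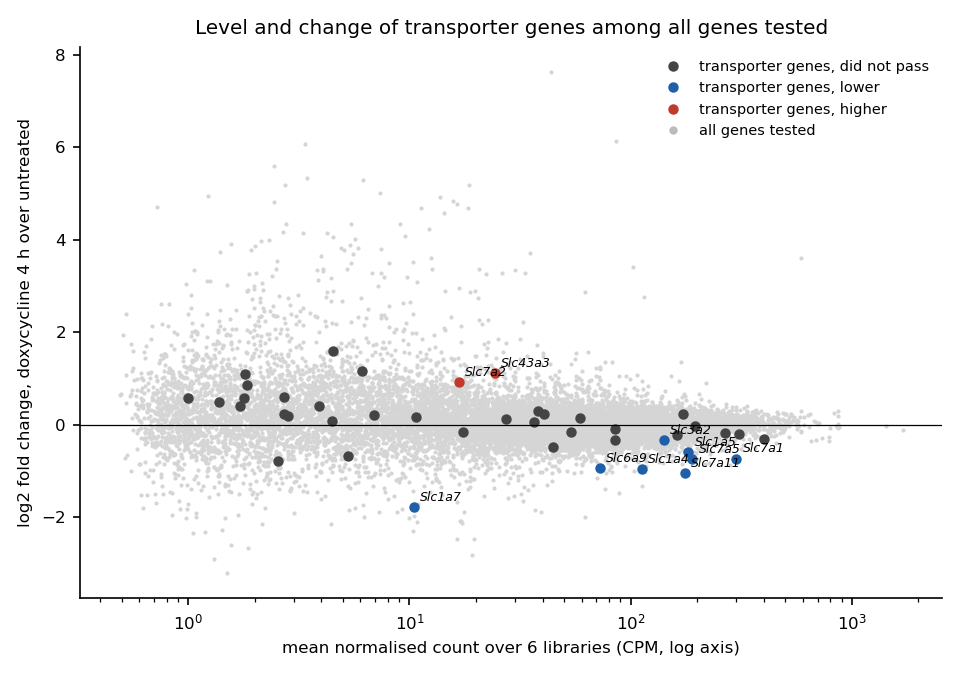
Log2 fold change, doxycycline 4 h over untreated, against the mean normalised count over the 6 libraries (CPM, log axis), for the 14809 genes tested (light grey) and the 43 tested transporter genes (large points). The 8 lower transporter genes (blue) all average at least 10 CPM, and the 2 higher genes (red) are Slc7a2 and Slc43a3.

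All 10 called genes averaged at least 10 CPM over the 6 libraries, a level reached by 27 of the 43 tested members. At this level, a division made after the values were seen, edgeR called 2.77% of all genes lower and 2.55% higher. None of the 16 tested members below it passed, where edgeR called 0.519% of all genes lower and 3.68% higher. Of these 16 members 14 had positive log2 fold changes, as did 2477 of 3855 genes tested in this range. The summed level of all 62 genes was 2764 to 3044 CPM in the doxycycline libraries and 3556 to 3794 CPM in the untreated libraries.

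**Figure D2:**
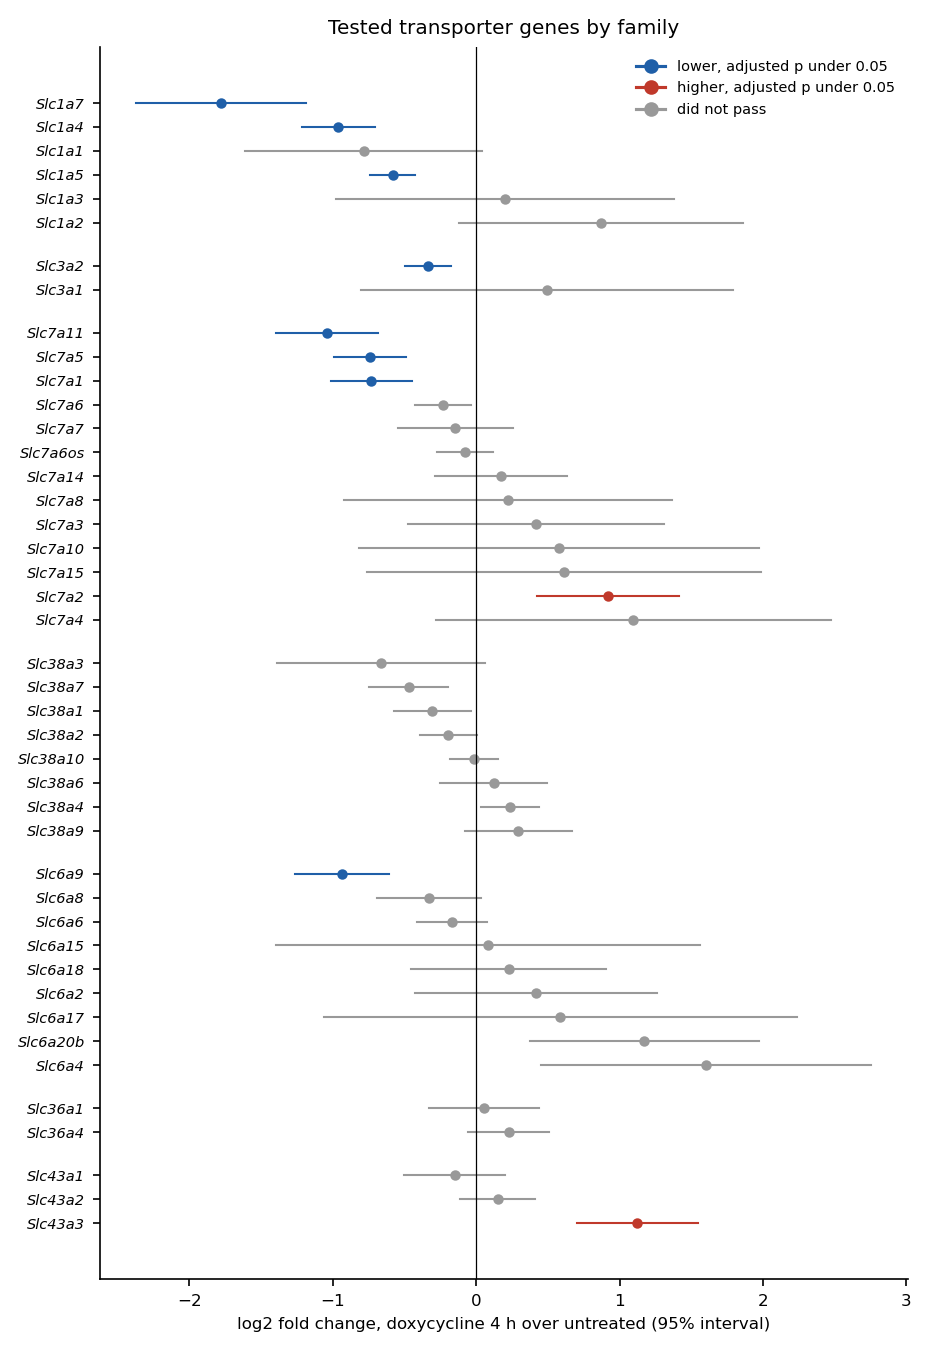
Log2 fold change, doxycycline 4 h over untreated, with 95% intervals, for the 43 tested members, grouped from top to bottom as Slc1, Slc3, Slc7, Slc38, Slc6, Slc36 and Slc43. Blue marks the 8 lower and red the 2 higher genes, and the grey genes did not pass an adjusted p of 0.05.

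The heavy chain gene Slc3a2, which encodes the CD98 heavy chain, was slightly lower after doxycycline. It stood at 128, 128 and 118 CPM in doxycycline replicates 1 to 3, against 160.1, 154 and 158 CPM in untreated replicates 1 to 3. The groups did not overlap, and the fitted level was 79.3% of that in untreated tumours (log2 fold change -0.34, SE 0.07, edgeR adjusted p = 0.0366). This call was lost with offsets for GC content and length (adjusted p = 0.0922) and without any single library other than doxycycline replicate 2. Over the 15 alternatives the adjusted p ran from 0.00192 to 0.199. The other heavy chain gene, Slc3a1, whose product pairs with Slc7a9 in kidney and gut, had only 12 to 37 counts after doxycycline and 5 to 29 untreated (log2 fold change 0.50, adjusted p = 0.649). It shares 601 exonic bases with Prepl on the opposite strand, and strand use in the counting is not given in the sources used here.

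Among the light chains that bind this heavy chain, Slc7a11 and Slc7a5 fell and the others did not pass. Slc7a11 encodes xCT, which imports cystine in exchange for glutamate and so feeds glutathione synthesis. Its level was 93.5, 119 and 133 CPM in doxycycline replicates 1 to 3 and 244, 273 and 195 CPM in untreated replicates 1 to 3. The highest doxycycline library was thus well below the lowest untreated library, with a fitted level of 48.6% of that in untreated tumours (log2 fold change -1.04, SE 0.16, adjusted p = 0.0154). Slc7a5 encodes LAT1, the main importer of leucine and other large neutral amino acids in dividing cells. It had 157, 118 and 153 CPM in doxycycline replicates 1 to 3, against 242, 244 and 228 CPM in untreated replicates 1 to 3 (log2 fold change -0.74, SE 0.11, adjusted p = 0.0154). The untreated libraries lay close together, and the spread after doxycycline came mainly from replicate 2.

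Slc7a6 and Slc7a7, exchangers of cationic for neutral amino acids, had log2 fold changes of -0.23 (95% interval -0.42 to -0.03, adjusted p = 0.153) and -0.15 (-0.55 to 0.26, adjusted p = 0.667). Slc7a8, the LAT2 light chain, was at 0.22 (adjusted p = 0.833), with 9.63, 2.33 and 10.4 CPM in doxycycline replicates 1 to 3 and 6.50, 7.79 and 4.86 CPM in untreated replicates 1 to 3. Slc7a10, a carrier of small neutral amino acids, had 6 to 32 counts after doxycycline and 9 to 14 untreated, and shares 377 exonic bases with Lrp3 on the opposite strand. The intervals of Slc7a8 and Slc7a10 span from a fall to a rise and include the value of Slc7a5.

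Read counts of each light chain were also divided by those of Slc3a2 in the same library. The ratio for Slc7a5 was 1.23, 0.926 and 1.29 in doxycycline replicates 1 to 3 and 1.51, 1.58 and 1.45 in untreated replicates 1 to 3. For Slc7a11 it was 0.731, 0.934 and 1.12 in doxycycline replicates 1 to 3 and 1.53, 1.77 and 1.24 in untreated replicates 1 to 3. In these libraries both light chain genes were lower relative to their heavy chain gene after doxycycline, with no overlap between groups. The ratios of Slc7a6, Slc7a7, Slc7a8 and Slc7a10 overlapped. These ratios reuse the counts behind the fold changes above and are no separate support. How many of all genes are apart in their ratio to Slc3a2 was not counted. The exact two-sided permutation test gave p = 0.1 for each of the 2 ratios that were apart, which is the smallest value that 3 against 3 libraries allow (adjusted p = 0.3 over 6 ratios).

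**Figure D3:**
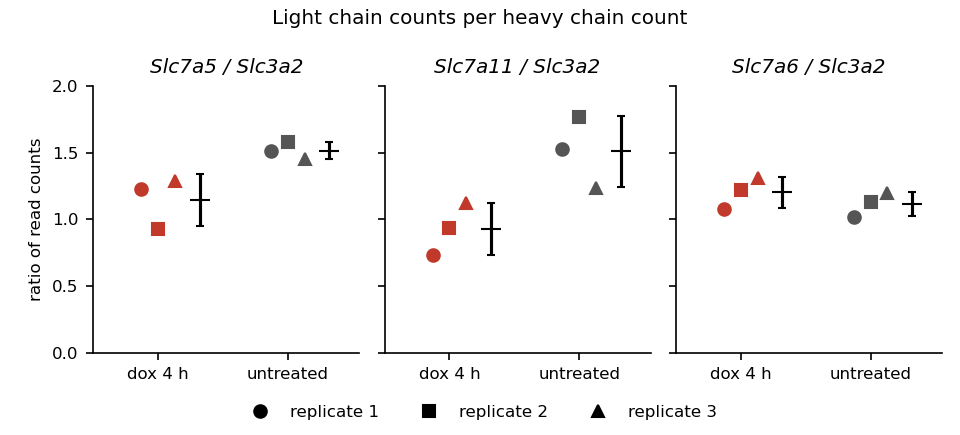
Ratio of the read counts of a light chain gene to those of the heavy chain gene Slc3a2 in each library, with doxycycline 4 h at the left and untreated at the right of each panel. Points are libraries and bars are the mean ± SD over 3 libraries. Slc7a5 averages 1.15 after doxycycline and 1.51 untreated, Slc7a11 0.929 and 1.51, and Slc7a6 1.20 and 1.12.

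Slc7a11 and Slc1a4, the gene with the next largest fall among the genes above 100 CPM in untreated tumours, each held a match to the core of the CCAAT enhancer binding protein and ATF response element in the promoter. The motif searched was TGATGNAA on either strand, in the 250 bases before and 50 after each start site in RefSeq on GRCm38.p6. The stretches are shown because they are where the matches lie, with Slc7a7 as a gene that holds matches and did not pass the test. Capitals mark the matches, and each sequence is on the minus strand of the genome, from position -150 to the end of its last match or to -1.
Slc7a11, chr3:50443614-50443763: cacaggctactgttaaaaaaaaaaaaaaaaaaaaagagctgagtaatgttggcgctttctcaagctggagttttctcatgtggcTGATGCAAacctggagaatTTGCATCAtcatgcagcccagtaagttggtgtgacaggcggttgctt
Slc1a4, chr11:20332710-20332863: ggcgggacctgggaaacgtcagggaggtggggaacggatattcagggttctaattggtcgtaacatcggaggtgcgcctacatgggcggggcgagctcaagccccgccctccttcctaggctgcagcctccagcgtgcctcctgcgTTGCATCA
Slc7a7, chr14:54417938-54418094: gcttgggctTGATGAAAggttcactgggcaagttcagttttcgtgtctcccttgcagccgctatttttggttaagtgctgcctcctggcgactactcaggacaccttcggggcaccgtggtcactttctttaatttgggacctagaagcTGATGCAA
The matches of Slc7a11 start 66 and 47 bases before the start site, on opposite strands and without overlap, and that of Slc1a4 lies across the start site. Promoters were found for 44 of the 62 genes, and 3 of the 44 (6.82%) held a match, against 4.51% of the 27025 genes in the RefSeq promoter table. Of the 8 lower genes 6 had a promoter there, and Slc1a7, Slc3a2, Slc6a9 and Slc7a1 had no match in this window, whereas Slc1a5 and Slc7a5 were not searched, nor were the higher genes Slc7a2 and Slc43a3. A match describes letters only and was not tested for binding.

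The neutral amino acid exchangers of the Slc1 family fell as well. Slc1a4 encodes ASCT1, which exchanges alanine, serine and cysteine. It was at 65.2, 79.8 and 83.3 CPM in doxycycline replicates 1 to 3, against 137, 161 and 146 CPM in untreated replicates 1 to 3 (log2 fold change -0.96, SE 0.11, adjusted p = 0.0075). Slc1a5 encodes ASCT2, the glutamine exchanger, and stood at 143, 145 and 151 CPM in doxycycline replicates 1 to 3 and at 216, 212 and 229.6 CPM in untreated replicates 1 to 3 (log2 fold change -0.58, SE 0.07, adjusted p = 0.0075). In both genes every doxycycline library was below every untreated library, and fitted levels were 51.4% and 66.8% of those in untreated tumours.

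The largest fall of any member was that of Slc1a7, which encodes EAAT5, a glutamate transporter known mainly from the retina. Its counts were 60, 55 and 86 in doxycycline replicates 1 to 3 and 263, 216 and 227 in untreated replicates 1 to 3. These correspond to 4.73 ± 0.845 CPM after doxycycline and 16.2 ± 3.26 CPM untreated (SD, n = 3 each; log2 fold change -1.78, SE 0.26, adjusted p = 0.0152), a fitted level of 29.2%. The other glutamate and aspartate transporters were at a few CPM or below and did not pass. Slc1a1, the neuronal and epithelial EAAT3, had 1.89 ± 0.543 CPM after doxycycline and 3.23 ± 0.773 CPM untreated (log2 fold change -0.78, adjusted p = 0.235), and shares 2631 exonic bases with 4430402I18Rik on the opposite strand. The glial transporter genes Slc1a2 and Slc1a3 had log2 fold changes of 0.87 (adjusted p = 0.27) and 0.20 (adjusted p = 0.856), and Slc1a6 had 1 to 3 counts per library.

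**Figure D4:**
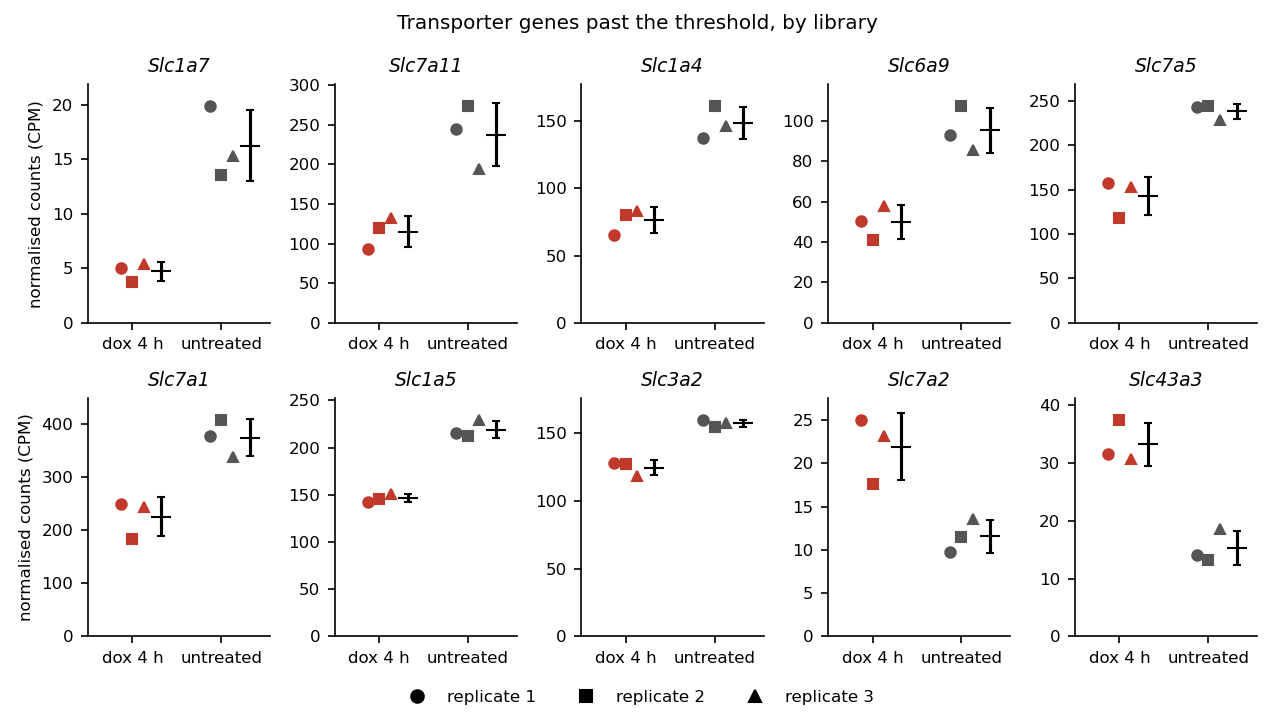
Normalised counts (CPM) of the 10 called members in each library, with doxycycline 4 h at the left and untreated at the right of each panel. Symbols mark replicates 1 to 3, and bars are the mean ± SD over 3 libraries. In all 10 panels the groups do not overlap, from Slc1a7 (4.73 CPM after doxycycline, 16.2 CPM untreated) to Slc43a3 (33.2 and 15.3 CPM).

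Of 5 tested cationic amino acid transporters of the Slc7 family, 1 was lower and 1 higher, and Slc7a3, Slc7a6 and Slc7a7 did not pass. Slc7a1, the widespread arginine and lysine importer CAT1, fell to 249.7, 184 and 244 CPM in doxycycline replicates 1 to 3, against 377, 409 and 339 CPM in untreated replicates 1 to 3 (log2 fold change -0.73, SE 0.12, adjusted p = 0.0213). Slc7a2, the CAT2 importer known from liver, muscle and activated macrophages, had 25.0, 17.6 and 23.1 CPM in doxycycline replicates 1 to 3 and 9.75, 11.5 and 13.6 CPM in untreated replicates 1 to 3. The groups of Slc7a2 were apart, and it rose at the edge of the threshold (log2 fold change 0.92, SE 0.22, adjusted p = 0.0496). The call for Slc7a2 held in 5 of the 15 alternatives, over which the adjusted p ran from 0.00255 to 0.195. Slc7a2 shares 635 exonic bases with a lincRNA on the opposite strand. Slc7a3, another importer of this kind, had 2.34, 5.42 and 5.64 CPM in doxycycline replicates 1 to 3 and 3.10, 4.15 and 2.83 CPM in untreated replicates 1 to 3 (log2 fold change 0.42, adjusted p = 0.567). The remaining Slc7 genes did not pass: Slc7a4 (log2 fold change 1.09), Slc7a14 (0.17), Slc7a15 (0.61) and Slc7a6os (-0.08). Slc7a4 shares 554 exonic bases with P2rx6 on the opposite strand, itself higher after doxycycline (log2 fold change 2.14, adjusted p = 0.0487). Slc7a9, Slc7a12 and Slc7a13 had too few counts to be tested.

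Slc6a9, which encodes the glycine transporter GLYT1, was the only called gene of the Slc6 family. It had 50.3, 41.2 and 57.8 CPM in doxycycline replicates 1 to 3, against 93.0, 107 and 85.4 CPM in untreated replicates 1 to 3 (log2 fold change -0.93, SE 0.14, adjusted p = 0.0164), a fitted level of 52.3%. Slc6a9 shares 1429 exonic bases with Ccdc24 on the opposite strand. Ccdc24 had 149, 148 and 125 counts in doxycycline replicates 1 to 3 and 151, 178 and 166 counts in untreated replicates 1 to 3. Its log2 fold change was -0.15 (edgeR adjusted p = 0.75). On the same strand as Ccdc24, Gm17114 shares 511 exonic bases with Slc6a9 and B4galt2 shares 46, and Gm17114 is not among the counted genes. The part of these overlaps in the change of Slc6a9 was not tested. Slc6a9 itself had 600 to 923 counts after doxycycline and 1230 to 1706 counts untreated. Erythroid cells use glycine for haem, and their 5 markers summed to 63.2 to 103 CPM after doxycycline and 89.0 to 113 CPM untreated, with none of 4 tested markers passing. Their part in the change of Slc6a9 was not tested.

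The other abundant Slc6 genes, which carry taurine and creatine, did not pass. Slc6a6, the taurine transporter, averaged 252 ± 37.0 CPM after doxycycline and 283 ± 12.6 CPM untreated (SD, n = 3 each; log2 fold change -0.17, adjusted p = 0.379). Slc6a8, the creatine transporter, averaged 75.3 ± 14.6 CPM after doxycycline and 94.6 ± 12.6 CPM untreated (log2 fold change -0.33, adjusted p = 0.256). In both genes the ranges of the groups overlapped, with doxycycline replicate 2 lowest.

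The serotonin transporter gene Slc6a4 had the largest positive value of any member without passing. Its counts were 60, 61 and 178 in doxycycline replicates 1 to 3 and 48, 26 and 22 in untreated replicates 1 to 3 (log2 fold change 1.60, 95% interval 0.45 to 2.75, adjusted p = 0.105). Slc6a20b, whose relatives carry proline and other imino acids, had 147, 76 and 124 counts in doxycycline replicates 1 to 3 and 50, 63 and 51 counts in untreated replicates 1 to 3 (log2 fold change 1.17, 95% interval 0.37 to 1.97, adjusted p = 0.0919). Its 1800 bases of exonic overlap with Sacm1l on the opposite strand, and its close paralog Slc6a20a, leave the source of its reads uncertain. Slc6a2, Slc6a15, Slc6a17 and Slc6a18 had log2 fold changes of 0.42, 0.08, 0.59 and 0.23, none past the threshold, and the other 10 Slc6 genes had too few counts to be tested. These 10 include the carriers of dopamine (Slc6a3), betaine (Slc6a12) and proline (Slc6a7), and the intestinal and renal neutral amino acid carrier gene Slc6a19.

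No gene of the Slc38 family passed, although it held the member with the most counts. Slc38a1, a system A importer of glutamine and other neutral amino acids, had 410.1, 294 and 375 CPM in doxycycline replicates 1 to 3 and 439.8, 475 and 420.3 CPM in untreated replicates 1 to 3 (log2 fold change -0.31, SE 0.12, adjusted p = 0.162). Its groups were apart, with doxycycline replicate 2 lowest, and with GC and length offsets it passed, at a log2 fold change of -0.51 (adjusted p = 0.0142). Over all alternatives its adjusted p ran from 0.0038 to 0.346. Slc38a2, the system A gene that amino acid shortage is known to induce, had 258, 323 and 286 CPM in doxycycline replicates 1 to 3 and 329, 341 and 323 CPM in untreated replicates 1 to 3 (log2 fold change -0.19, SE 0.09, adjusted p = 0.221). Without doxycycline replicate 2 it passed (log2 fold change -0.28, adjusted p = 0.0336), and with GC and length offsets its log2 fold change was -0.35 without passing (adjusted p = 0.114, range over alternatives 0.0336 to 0.421). Slc38a4, a system A gene of liver, averaged 186 ± 20.4 CPM after doxycycline and 158 ± 4.31 CPM untreated (log2 fold change 0.24, adjusted p = 0.159), the opposite sign to Slc38a1 and Slc38a2.

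The lysosomal and proton-coupled carriers did not pass either. Slc38a7, a lysosomal exporter of glutamine and asparagine, had 36.8, 39.0 and 36.1 CPM in doxycycline replicates 1 to 3 and 45.8, 51.8 and 57.5 CPM in untreated replicates 1 to 3, with no overlap (log2 fold change -0.47, SE 0.12, adjusted p = 0.0622). It passed in DESeq2 (adjusted p = 0.0124) and without doxycycline replicate 2 (adjusted p = 0.0279), with a range of 0.0124 to 0.295 over the alternatives. Slc38a9, the lysosomal arginine sensor that acts on mTORC1, averaged 42.0 ± 8.27 CPM after doxycycline and 34.3 ± 2.46 CPM untreated (log2 fold change 0.29, adjusted p = 0.316). Slc36a1, a proton-coupled carrier of small amino acids, had a log2 fold change of 0.05 (95% interval -0.33 to 0.44). Its relative Slc36a4 was at 0.23 (-0.05 to 0.51). Of the rest of the Slc38 family, Slc38a3, Slc38a6 and Slc38a10 were at -0.66, 0.12 and -0.01, and none passed. Slc36a2, Slc36a3, Slc38a5, Slc38a8 and Slc38a11 had too few counts to be tested.

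In the Slc43 family, Slc43a3 rose and its relatives did not pass. Slc43a3 is a purine nucleobase transporter and had 31.5, 37.5 and 30.7 CPM in doxycycline replicates 1 to 3, against 14.1, 13.1 and 18.5 CPM in untreated replicates 1 to 3 (log2 fold change 1.12, SE 0.19, adjusted p = 0.0196). Its lowest doxycycline library was above its highest untreated library. The leucine carriers Slc43a1 and Slc43a2, LAT3 and LAT4, had log2 fold changes of -0.15 (95% interval -0.50 to 0.20, adjusted p = 0.61) and 0.15 (-0.11 to 0.41, adjusted p = 0.472). With Slc7a5 and Slc7a8 they form the group that carries large neutral amino acids, of which 1 of 4 was lower.

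Markers of other cell types moved in the same libraries, where edgeR called 2.84% of all genes tested higher and 2.18% lower. In bulk tumour RNA, fewer cells of a type and less RNA per cell cannot be told apart. Of 16 tested muscle markers 10 were higher and none lower, with sums of 1520, 3101 and 449.7 CPM in doxycycline replicates 1 to 3, against 85.2 to 236 CPM in untreated libraries. Of 12 fibroblast markers 4 were higher (sums of 1692 to 1961 CPM after doxycycline and 1274 to 1319 CPM untreated), of 12 macrophage markers 3 (589 to 827 CPM and 447 to 551 CPM) and of 10 endothelial markers 2 (426 to 503 CPM and 335 to 389 CPM). Of 8 tested neutrophil markers 1 was lower, Csf3r, with sums of 84.6 to 128 CPM after doxycycline and 151 to 209 CPM untreated. None of 3 tested T and B cell markers and of 8 tested hepatoblast and biliary markers passed. With each library left out in turn, 0 to 12 muscle, 2 to 7 fibroblast, 0 to 5 macrophage and 0 to 3 endothelial markers were higher and 0 to 3 neutrophil markers lower. The counts also depended on the method with all libraries kept. Higher muscle markers then ran from 1 in limma-voom to 15 in DESeq2. Higher fibroblast markers ran from 3 to 7, macrophage from 2 to 6 and endothelial from 0 to 2, and lower neutrophil markers from 0 to 4. No marker of these lists was at 0 in all 6 libraries. The part of these cell types in the changes of the transporter genes was not tested.

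The transporters known to be induced by ATF4 accounted for 7 of the 8 lower genes. This list of known targets and the one below were chosen with earlier results of these data known. Among all genes tested edgeR called 2.18% lower and 2.84% higher. Of the 9 transporters on the list 7 were lower, none was higher, and Slc7a3 and Slc38a2 did not pass. Their median log2 fold change was -0.73 and their summed level 1143 to 1232 CPM after doxycycline, against 1706 to 1905 CPM untreated. Slc1a7 is the lower gene outside it, and the higher genes Slc7a2 and Slc43a3 are not on it either. Of 24 further genes of the ATF4 programme 19 fell and none rose (median log2 fold change -0.88), with sums of 1681 to 1787 CPM after doxycycline, against 2787 to 2847 CPM untreated. This count was 12 without doxycycline replicate 3, 4 without untreated replicate 1, 6 without untreated replicate 2 and 3 without untreated replicate 3, settings added for the lists after seeing the data, and 18 to 22 without the other libraries. The transporters on the list gave 0, 2 and 1 lower without untreated replicates 1, 2 and 3, and 6 to 8 without a doxycycline library. Among all genes, 0.0786%, 0.166% and 0.0858% were lower without untreated replicates 1, 2 and 3. Without doxycycline replicates 1, 2 and 3 the shares were 1.56%, 5.69% and 0.867%. Among the 24 further genes, Gdf15, a secreted stress hormone, was lower (log2 fold change -2.47, edgeR adjusted p = 0.00174). So were Atf5, a transcription factor related to ATF4 (-1.04, adjusted p = 0.00546), and Pycr1, which makes proline (-1.03, adjusted p = 0.00546). The part of ATF4 in these changes was not tested.

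Genes of amino acid metabolism and sensing outside the 7 families were counted in the same way. The lists overlap: Asns, Pycr1 and Cth among the enzymes and Sesn2 among the sensing genes were also counted in the ATF4 programme. The shares over all genes tested were 2.18% lower and 2.84% higher in edgeR. Of 27 tested enzymes of amino acid metabolism 6 were lower and none higher (median log2 fold change -0.27). They include Pycr1, the alanine aminotransferase gene Gpt2 (-0.62, adjusted p = 0.0075), the branched-chain aminotransferase gene Bcat1 (-0.76, adjusted p = 0.00766) and Cth, which makes cysteine (-0.90, adjusted p = 0.0164). Of 19 tested amino acid carriers outside the 7 families 1 was lower, the mitochondrial glutamate carrier gene Slc25a22 (-0.78, adjusted p = 0.0398), and the median was -0.05. Of 30 genes of amino acid sensing by mTORC1, the leucine sensor gene Sesn2 was lower (-1.46, adjusted p = 0.00655) and its relative Sesn1 higher (0.75, adjusted p = 0.0164), with a median of -0.07. With each library left out in turn, 0 to 9 enzymes, 0 to 2 of these carriers and 0 to 5 sensing genes were lower. Differences between these lists were not tested.

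Levels of members can be compared per length, as CPM per kilobase of exonic length. Over all 6 libraries Slc7a5 was highest on this scale, with 38.5 after doxycycline and 64.2 untreated. Slc38a4 had 43.6 after doxycycline, more than Slc7a5, and 37.0 untreated, Slc3a2 35.3 and 44.6, and Slc1a5 35.1 and 52.5. Per kilobase of the longest transcript the order differed, with Slc1a5 first, Slc38a1 second and Slc7a5 in the place after them. For 1 pair of libraries, count ratios were compared across read densities. Between untreated replicates 2 and 1, whose totals had a ratio of 1.23, the median count ratio was 1.25 for genes at 0.05 to 0.1 counts per transcript base, 1.16 at 0.5 to 1 and 1.11 above 1. The 11 members with at least 0.5 counts per base in untreated tumours had ratios of 1.16 to 1.41 between these libraries, with a median of 1.25. The densest were Slc1a5 (1.14 counts per base, ratio 1.18), Slc7a5 (0.993, ratio 1.21) and Slc38a1 (0.900, ratio 1.30). The part of this in the members' fold changes was not tested.

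The signs of the 10 called genes held whichever library was left out, but the calls depended on the untreated libraries. Without untreated replicate 1 no member passed in edgeR, although 11 lower and 4 higher members had an unadjusted p under 0.05, as did 15.8% of all genes tested. No other tool was run without a library. Without untreated replicate 2 the genes Slc1a4 and Slc1a5 passed, and without untreated replicate 3 only Slc7a11. Among all genes these fits called 0.0786%, 0.166% and 0.0858% lower and 0.0721%, 0.179% and 0.0924% higher. Without doxycycline replicates 1 and 3 there were 7 lower and 1 higher members each, and without doxycycline replicate 2 there were 10 lower and 5 higher, where 1.56%, 0.867% and 5.69% of all genes were lower and 1.19%, 1.06% and 8.18% higher. With all libraries, DESeq2 called 9 members lower and 4 higher, against 5.28% and 5.99% of all genes. Limma-voom called 8 lower and 1 higher, against 1.86% and 1.69%. DESeq2 size factors in edgeR gave 8 and 1, against 2.26% and 2.77%, and GC and length offsets 8 and 1, against 2.69% and 2%.

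**Figure D5:**
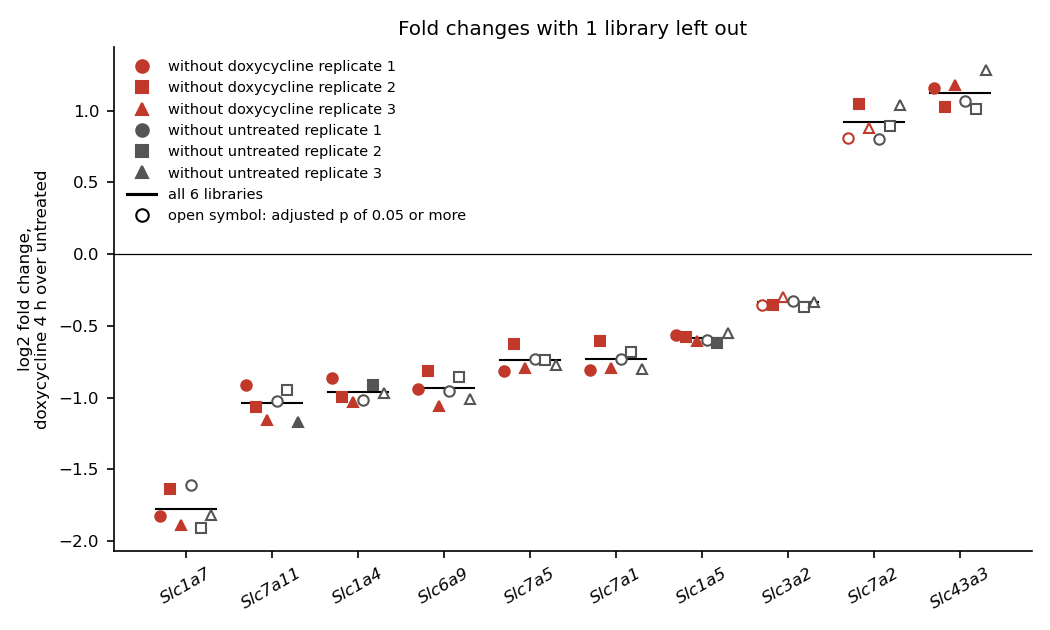
Log2 fold change, doxycycline 4 h over untreated, of the 10 called members with all 6 libraries (lines) and with each library left out in turn (red, a doxycycline library left out; grey, an untreated one). Filled symbols have an adjusted p under 0.05 and open symbols do not. All symbols of a gene stay on the same side of 0, and few symbols are filled where an untreated library is left out.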

How the data were processed

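The authors deposited raw read counts per gene, which the submitters' processing notes tie to TopHat2 2.0.8, TopHat, HTSeq and the mm9 genome, from ribosome-depleted RNA and TruSeq v2 libraries per the labels' protocols. How strand, duplicates and multiply mapped reads were handled is not given here. Of 21761 rows, 90 without a gene name (0.0361% to 0.0402% of each library) were left out.

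Groups followed the sample titles. Counts were tested in R 4.3.3 with edgeR 4.0.16 (filterByExpr, TMM factors 0.985 to 1.02, robust glmQLFit, then a two-sided glmQLFTest), p-values adjusted by Benjamini-Hochberg over all genes tested at a threshold of 0.05, after a check on simulated counts. Log2 fold changes are doxycycline over untreated. Their SE was taken from the F statistic, with 95% intervals. CPM uses TMM-scaled totals of all named genes. Counts cover sampling of reads and not separate molecules. Lengths and GC content came from GENCODE vM21 on GRCm38, another build than the authors', for 62 of 62 members, and promoters from RefSeq. Alternatives were DESeq2 1.42.0, limma-voom 3.58.1, other scalings and filters, GC and length offsets, a replicate block, and each library left out.

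Between replicates, chi-square over its degrees of freedom was 13.1 to 31.8 after doxycycline and 5.40 to 8.69 untreated, above the noise of sampling reads. Members chosen by rule were all called genes, the ATF4-linked list, and the 3 most abundant and the lowest-p gene per family. Of each list up to 4 lowest-p genes were chosen. Values of other members are also given to account for all, and some of these were picked after the values were seen. The members and lists were chosen with earlier results of these data known.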

Additional observations from a re-analysis of the deposited data

How the results depend on the processing

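The 8 lower and 2 higher members kept their direction under all 15 alternatives. Leaving out each library in turn gave 0 to 10 lower and 0 to 5 higher members, 0 to 8 lower ATF4-linked transporters, 12 to 866 lower and 11 to 1244 higher genes among all tested, and a log2 fold change of 0.58 to 1.45 for St18, which passed without doxycycline replicate 2. Each of these fits had fewer libraries than the main fit, and the cause of the differences between them was not tested. DESeq2 called 4 higher members, adding Slc6a4 and Slc6a20b, and 887 higher and 782 lower genes. Higher members numbered 1, without Slc7a2, with limma-voom, with DESeq2 size factors in edgeR, with the replicate block and with GC and length offsets, alone or with the block. Among all genes, limma-voom called 251 genes higher.

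The replicate block called 215 genes higher and 179 lower, 7 members lower and 1 higher, without Slc3a2 and Slc7a2, and the GC and length offsets with the block 499 lower. In the sample titles, same-numbered libraries are linked by the number only. The correlations of their deviations from the group means were -0.00976, -0.0747 and 0.0155. With 3 libraries per group, these values cannot decide whether the libraries were paired. GC and length offsets called 294 genes higher and 395 lower, against 421 and 323 without them, and their 8 lower members include Slc38a1 and not Slc3a2. Upper-quartile factors called 535 higher and 277 lower. For genes that did not pass, signs turned for Slc38a10 (0.019 with upper-quartile factors, 0.094 with GC and length offsets alone and 0.091 with the block, and -0.073 to 0.012 over the libraries left out) and for Slc36a1 (-0.12 to 0.19 over the libraries left out, below 0 without doxycycline replicate 3 or untreated replicate 3). Of 330 values of single members under the alternatives, 279 kept direction and side of the threshold. The 19 members not tested had at most 16 counts in any library.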

Other observations

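In 6 of the 43 tested members, picked after their values were seen, doxycycline replicates 1 and 3 were above all untreated libraries and doxycycline replicate 2 below them all. Of all 14809 genes tested 632 (4.27%) had this pattern. The members were Slc38a6, Slc6a2, Slc6a17, Slc7a4, Slc7a8 and Slc7a15. Slc7a15, a rodent member of the light chain family, had 40, 11 and 91 counts in doxycycline replicates 1 to 3 and 31, 33 and 30 counts in untreated replicates 1 to 3. Slc6a17, a vesicular carrier of neutral amino acids in neurons, had 29, 4 and 60 counts in doxycycline replicates 1 to 3 and 13, 30 and 21 counts in untreated replicates 1 to 3. Over the 43 members, doxycycline replicate 2 was the lowest doxycycline library in 24 and the highest in 10. Of all 14809 genes tested it was the lowest in 5985 (40.4%) and the highest in 5487 (37.1%). Slc7a4 shares 554 exonic bases with P2rx6 on the opposite strand, which was higher after doxycycline (log2 fold change 2.14, adjusted p = 0.0487 in edgeR). The reason for the position of this library was not tested.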
